A study of Homo sapiens with 12 samples.

Results

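Small nucleolar RNAs (snoRNAs) and small Cajal body RNAs (scaRNAs) were examined in HUH6 cells, a line derived from a human hepatoblastoma, after siRNA against the transcription factor GATA4. The set was taken by name: probes whose annotated symbol starts with SNORA (box H/ACA snoRNAs), SNORD (box C/D snoRNAs) or SCARNA (scaRNAs), detected on at least 6 of 12 arrays, with the brightest probe standing for each gene. Detection meant a detection p-value under 0.01, the scanner software's estimate that a probe's signal could come from background. This gave 57 genes of the 301 annotated under these symbols and of the 10196 genes tested in all. They were 27 SNORA, 25 SNORD and 5 SCARNA genes.

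The cells all came from 1 line, and every sample was transfected. One group of 6 samples received non-targeting control siRNA (NT siRNA) and the other 6 received a pool of siRNAs against GATA4, each at 0.1 uM with transfection stopped after 6 h. RNA was taken at 72 h and measured on Illumina HT-12 v4 expression beadchips. The replicates are numbered 1 to 6 in both groups. Whether each is a culture of its own is not said in the labels, and a p-value here can only speak of the spread between the samples measured, which may be technical.

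Box H/ACA snoRNAs guide the conversion of uridine to pseudouridine, and box C/D snoRNAs guide methylation of the ribose. Their main targets are ribosomal RNAs, while scaRNAs guide the same reactions on spliceosomal RNAs in Cajal bodies. Each guide works in a particle with a fixed set of proteins: the pseudouridine synthase DKC1 with NHP2, NOP10 and GAR1 for box H/ACA, and the methyltransferase FBL with NOP56, NOP58 and SNU13 for box C/D. Most human members are cut out of introns of other genes, called hosts, many of which encode ribosomal proteins or translation factors. A few, such as the U3 genes of the SNORD3 family, have their own promoters and take part in cutting the ribosomal precursor instead of modifying it.

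The arrays carry a limit for RNAs of this kind. The labelling kit named in the labels starts its copies at poly(A) tails, which mature snoRNAs lack, so signal from the mature small RNA, from a tailed form and from unspliced host RNA cannot be told apart. In bulk RNA, fewer cells expressing a gene and less of its RNA per cell cannot be told apart either. Raw signals of the 57 members averaged 139.1 to 461.5 units per probe over the 12 arrays, against array medians of 117.4 to 128.1 over all probes. These medians were 117.4 to 121.2 with NT siRNA and 120.8 to 128.1 with GATA4 siRNA, and higher with GATA4 siRNA at every replicate number. On the normalised log2 scale used for the tests, the members' mean levels ran from 5.34 to 8.50 with a median of 6.29, against a median of 8.43 over all genes tested. Of 48106 probes, 16067 to 16804 were detected per array, and 55 to 67 of them were among the 304 probes annotated with these symbols.

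Detection differed by class. Of 101 annotated SNORA genes, 27 passed the filter, 21 were detected on all 12 arrays and 57 on none. Of 176 SNORD genes, 25 passed, 15 were detected on all arrays and 134 on none. Among 24 SCARNA genes, 5 passed and 17 were detected on none. The imprinted SNORD115 and SNORD116 clusters, known for high levels in brain, gave 0 detected genes of the 2 and 5 on the array, and of the neural markers SNAP25 and ELAVL4 were likewise detected on 0 arrays, while SYT1 was detected on 12, at 158.6 to 203.5 raw units. None of the 9 SNORD113 genes and 1 of the 15 SNORD114 genes, from the imprinted cluster on chromosome 14, was detected on any array, the latter being SNORD114-2 on 4 arrays. Just inside the filter, at 6 arrays, lay SNORA23, SNORA68 and SNORD3C, with mean raw signals of 139.1, 140.4 and 139.6. Just outside, at 5 arrays, lay SNORA27, SNORA49 and SNORA5C, with 136.1, 143.2 and 137.0.

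GATA4 itself was detected in 6 of 6 NT siRNA samples, at 137.1 to 168.8 raw units, and in 0 of 6 GATA4 siRNA samples, at 108.3 to 119.3. The groups did not overlap. The signal was at least 1.19-fold lower after GATA4 siRNA, a bound set by the lowest detected signals (two-sided exact permutation test over 924 splits, p = 0.00216, the smallest the design allows). The hepatoblast and hepatocyte markers AFP, ALB, TTR, APOA1 and GPC3 were detected on these arrays, AFP at 15009.9 to 18286.8 raw units, while COL3A1, DCN and LUM of stellate cells and fibroblasts, PTPRC of leukocytes and VWF and KDR of endothelium were detected on 0 arrays. Other markers of such cells were detected on all 12 arrays: PDGFRB and RGS5, CD68 and CD14 of macrophages, CD3D of T cells and PECAM1 of endothelium, and CD163 was detected on 6.

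The 12 arrays fell into 2 sets that the siRNA does not explain. The first principal component held 57.3% of the variance and separated replicates 1 to 3 from replicates 4 to 6 in both groups, and 51.1% of all genes tested differed between these sets. What separates them (a chip, a date, a batch) is given neither in the labels nor in the files. Because the split was seen in these arrays before the sets were compared, p-values between sets describe a known split. The siRNA results are therefore given with the replicate number as a block, and the counts also without the block and within each set. The block sets each GATA4 siRNA sample against the NT siRNA sample of its own number. About the means of group and set, samples of the same number did not correlate (r over genes -0.0609 to 0.0117). Counts of pairs given below therefore match samples by number only.

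In RefSeq's gene table of GRCh38.p14, 53 of the 57 members lay wholly inside a larger gene, which is taken here as the host. The table gives gene boundaries only, with no strand for the members and no exons, so neither strand nor intron was checked. There were 44 host genes, 30 of them tested on these arrays, and 10 hosts held more than 1 member. Of the 53 members, 5 lay inside more than 1 larger gene. TAF1D, which encodes a subunit of the factor that recruits RNA polymerase I, held 5 members (SNORA8, SNORA18, SNORA25, SNORA32 and SNORD6). No host was found for SNORA50C, SNORD3A, SNORD3C and SNORD3D.

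Many snoRNA hosts are known to start transcription at a C followed by a run of pyrimidines, the 5′ terminal oligopyrimidine feature of ribosomal protein and translation factor genes. RefSeq promoter windows (GRCh38.p14, 250 bases before to 50 from the annotated start) were found for 38 of the 44 hosts. In 17 of them (44.7%) the annotated start was a C followed by at least 4 further C or T, against 1404 of 27305 genes with a window (5.14%). The letters AGATAA, a sequence GATA factors bind, were found on either strand of the same window in 6 hosts (15.8%) and in 12.4% of all genes. Both are matches of letters and say nothing of binding or of use. The 5 starts printed here are those of hosts whose members carry the results that follow, each with 35 bases before and 25 from the start, 5′ to 3′ on the gene's strand, with the run of pyrimidines at the start in capitals.
EIF4A2, chr3:186783542-186783601, plus strand: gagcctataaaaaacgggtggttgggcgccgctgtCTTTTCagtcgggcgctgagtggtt
RPSA, chr3:39406685-39406744, plus strand: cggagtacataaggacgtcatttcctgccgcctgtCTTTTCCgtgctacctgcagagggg
SNHG12, chr1:28581849-28581908, minus strand: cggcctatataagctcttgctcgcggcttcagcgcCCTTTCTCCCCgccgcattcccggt
TAF1D, chr11:93741471-93741530, minus strand: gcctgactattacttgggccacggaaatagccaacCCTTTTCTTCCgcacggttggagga
TMEM167A, chr5:83077370-83077429, minus strand: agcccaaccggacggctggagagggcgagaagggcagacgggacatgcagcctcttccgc

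The runs cover 6, 7, 11 and 11 bases in EIF4A2 (host of SNORA63), RPSA (SNORA6 and SNORA62), SNHG12 (SNORA61 and SNORD99) and TAF1D. TMEM167A, host of SCARNA18, has none at its annotated start, and neither have EIF4A1 (SNORA67) and NSD2 (SCARNA22). Hosts with and without such a start thus stand behind the members described next.

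GATA4 siRNA was followed by lower signal of 5 members: the snoRNAs SNORA63, SNORA67 and SNORA62 and the scaRNAs SCARNA18 and SCARNA22. All 5 are of the box H/ACA type, and none of the 25 SNORD genes passed the test. No member was higher. With the replicate block, limma called 656 of 10196 genes (6.43%) at an adjusted p under 0.05, 271 higher (2.66%) and 385 lower (3.78%). The 5 members are 8.77% of the 57, a share that rests on few genes. The 0 of 25 SNORD genes lower also stand against 3.78% of all genes. SNORD genes were dimmer, at a median log2 level of 6.10 against 6.59 for SNORA, and the difference between classes was not tested. The median difference, GATA4 siRNA minus NT siRNA on the log2 scale, was -0.06 over SNORA, 0.01 over SNORD, -0.18 over SCARNA and 0.00 over all genes tested.

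SNORA63 (chr3:186787299-186787433, inside EIF4A2, which encodes a translation initiation helicase) is the RNA also known as E3. In the NT siRNA samples it read 178.2, 190.1 and 197.1 raw units in replicates 1 to 3 and 331.6, 356.4 and 309.5 in replicates 4 to 6. After GATA4 siRNA it read 175.0, 172.2 and 178.6, then 266.9, 278.9 and 275.2. On the log2 scale every GATA4 siRNA sample lay below every NT siRNA sample of its own set, while the groups as a whole overlapped because the sets differ. The difference was -0.42 ± 0.08 (SE, adjusted p = 0.00277), a 1.34-fold lower signal seen in 6 of 6 pairs.

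SNORA67 (chr17:7577955-7578091, inside EIF4A1, a second translation initiation helicase, and inside the read-through gene SENP3-EIF4A1) showed the same layout. It read 229.9, 281.1 and 250.3 in replicates 1 to 3 and 361.3, 414.3 and 368.9 in replicates 4 to 6 with NT siRNA. With GATA4 siRNA the values were 234.3, 233.5 and 204.1, then 307.1, 360.4 and 289.0. After normalisation each GATA4 siRNA sample was the lower of its pair, by 0.11 in replicate 1 and by 0.84 in replicate 6 on the log2 scale. The difference was -0.43 ± 0.08 (SE, adjusted p = 0.00232), again in 6 of 6 pairs.

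SCARNA18 (chr5:83064204-83064337, inside TMEM167A) and SCARNA22 (chr4:1974636-1974760, inside the histone methyltransferase gene NSD2) are scaRNAs with the box H/ACA fold. SCARNA18 read 180.2, 206.4 and 205.8, then 357.3, 390.7 and 323.5 with NT siRNA, and 198.7, 185.8 and 166.3, then 284.6, 339.9 and 246.6 with GATA4 siRNA. SCARNA22 read 154.0, 194.3 and 207.2, then 291.9, 314.9 and 257.0 with NT siRNA, and 181.0, 157.3 and 163.8, then 246.6, 252.3 and 235.0 with GATA4 siRNA. On the log2 scale replicate 1 went the other way in both and the siRNA groups overlapped in replicates 1 to 3, whereas in replicates 4 to 6 all GATA4 siRNA samples lay below all NT siRNA samples. The differences were -0.44 ± 0.10 for SCARNA18 (SE, adjusted p = 0.00715) and -0.44 ± 0.11 for SCARNA22 (SE, adjusted p = 0.0208), each lower in 5 of 6 pairs.

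SNORA62 (chr3:39411054-39411207), known as E2, lies in RPSA, whose protein is part of the small ribosomal subunit. No probe was annotated to RPSA alone, so this host was not tested. SNORA62 read 180.9, 210.9 and 206.9, then 231.6, 228.9 and 217.6 with NT siRNA. With GATA4 siRNA it read 176.6, 185.4 and 163.5, then 209.2, 245.0 and 209.0. On the log2 scale the siRNA groups were apart in replicates 1 to 3 and overlapped in replicates 4 to 6. The difference was -0.35 ± 0.09 (SE, adjusted p = 0.0281), lower in 5 of 6 pairs. SNORA6, which shares this host, differed by -0.07 ± 0.13 (SE, adjusted p = 0.822).

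**Figure D1:**
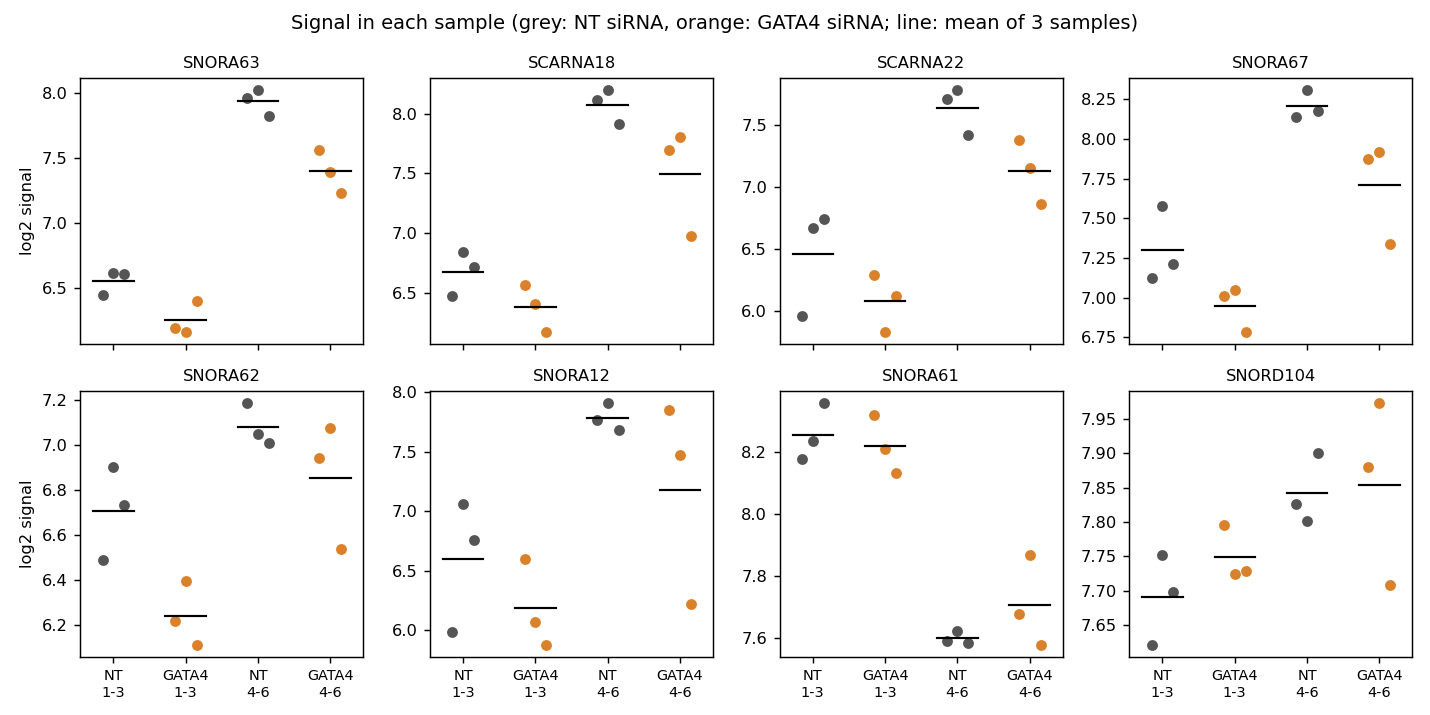
Normalised log2 signal of 8 members in each sample, by siRNA (grey, NT; orange, GATA4) and set of replicates, with lines at means of 3 samples; each panel has its own scale. SNORA63, SNORA67, SCARNA18 and SCARNA22 are higher in replicates 4 to 6 and, there, lower with GATA4 siRNA. SNORA61 is lower in replicates 4 to 6, and SNORD104 differs little between groups.

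These 5 calls need a term for the replicate number or for the set in the fit. With the 2 sets as block in place of the number, 5 members were again lower. Without any block 0 members passed in limma (4 at an unadjusted p under 0.05), against 0.706% of all genes, and SNORA63 then had an adjusted p of 0.825. Within replicates 1 to 3 alone 0 members passed against 1.72% of genes (0.618% higher, 1.1% lower), with SNORA63 at -0.30 (adjusted p = 0.304) and SNORA67 at -0.35 (adjusted p = 0.195). Within replicates 4 to 6 alone 5 members were lower and 0 higher against 5.41% of genes (2.05% higher, 3.36% lower): SNORA63 at -0.54, SCARNA18 at -0.58, SCARNA22 at -0.50, SNORA67 at -0.50 and SNORA7B at -0.54. The siRNA difference itself was not shown to differ between sets: the interaction was called for 0 members and 0 of 10196 genes in limma, with 3 members at an unadjusted p under 0.05 (SCARNA13, SNORA7B and SNORD36C). The sizes depend on the background correction: without it the same 5 members passed, at -0.28 for SNORA67, -0.27 for SCARNA18, -0.25 for SNORA63, -0.24 for SCARNA22 and -0.17 for SNORA62.

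Single samples decided some of these calls. Leaving out 1 sample at a time, which also takes its partner out of the paired contrast, left SNORA63 and SNORA67 past the threshold every time. SCARNA18 missed it without NT siRNA replicate 6 (-0.34, adjusted p = 0.0505). SCARNA22 missed it when either sample of replicate 2, 3, 5 or 6 was left out (-0.41 to -0.36, adjusted p = 0.0574 to 0.0952), and SNORA62 when either sample of replicate 2, 3, 4 or 6 was (-0.37 to -0.29, adjusted p = 0.0506 to 0.0971).

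The other SNORA genes did not pass. SNORA12, in CWF19L1, had the most negative difference of any member at -0.51 ± 0.17 (SE, adjusted p = 0.0753). It read 155.3, 225.1 and 208.7, then 300.3, 336.5 and 290.4 with NT siRNA, and 201.1, 167.5 and 153.9, then 303.7, 290.7 and 187.2 with GATA4 siRNA. NT siRNA replicate 1 and GATA4 siRNA replicate 6 were each far below the other samples of their set and siRNA. SNORA80A, in URB1, differed by -0.41 ± 0.13 (SE, adjusted p = 0.0614). SNORA70, in the ribosomal protein gene RPL10, had the most positive difference at 0.32 ± 0.12 (SE, adjusted p = 0.107).

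Among SNORD genes the differences ran from -0.32 to 0.15. The 3 with the lowest p were SNORD22 at -0.32 ± 0.13 (SE, adjusted p = 0.158), SNORD52 at -0.27 ± 0.12 (SE, adjusted p = 0.192) and SNORD17 at -0.22 ± 0.10 (SE, adjusted p = 0.198). SNORD22, or U22, is known from frog oocytes to be needed for processing the ribosomal precursor. It lies in SNHG1 with SNORD30 and SNORD31, which differed by -0.23 and 0.09. After normalisation SNORD30 was lower in all 6 pairs, as were SNORA63 and SNORA67, 3 members in all against 6.12% of genes. In raw units SNORD30 was the higher with GATA4 siRNA in replicates 1, 2 and 5, and SNORA67 in replicate 1. Among the remaining scaRNAs, SCARNA10, a guide for the U5 spliceosomal RNA, differed by -0.12 ± 0.06 (SE, adjusted p = 0.265), SCARNA13 by -0.18 and SCARNA16 by -0.01. On the log2 scale the 6 NT siRNA and the 6 GATA4 siRNA samples overlapped in all 57 members, and in 1.68% of all genes they did not.

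**Figure D2:**
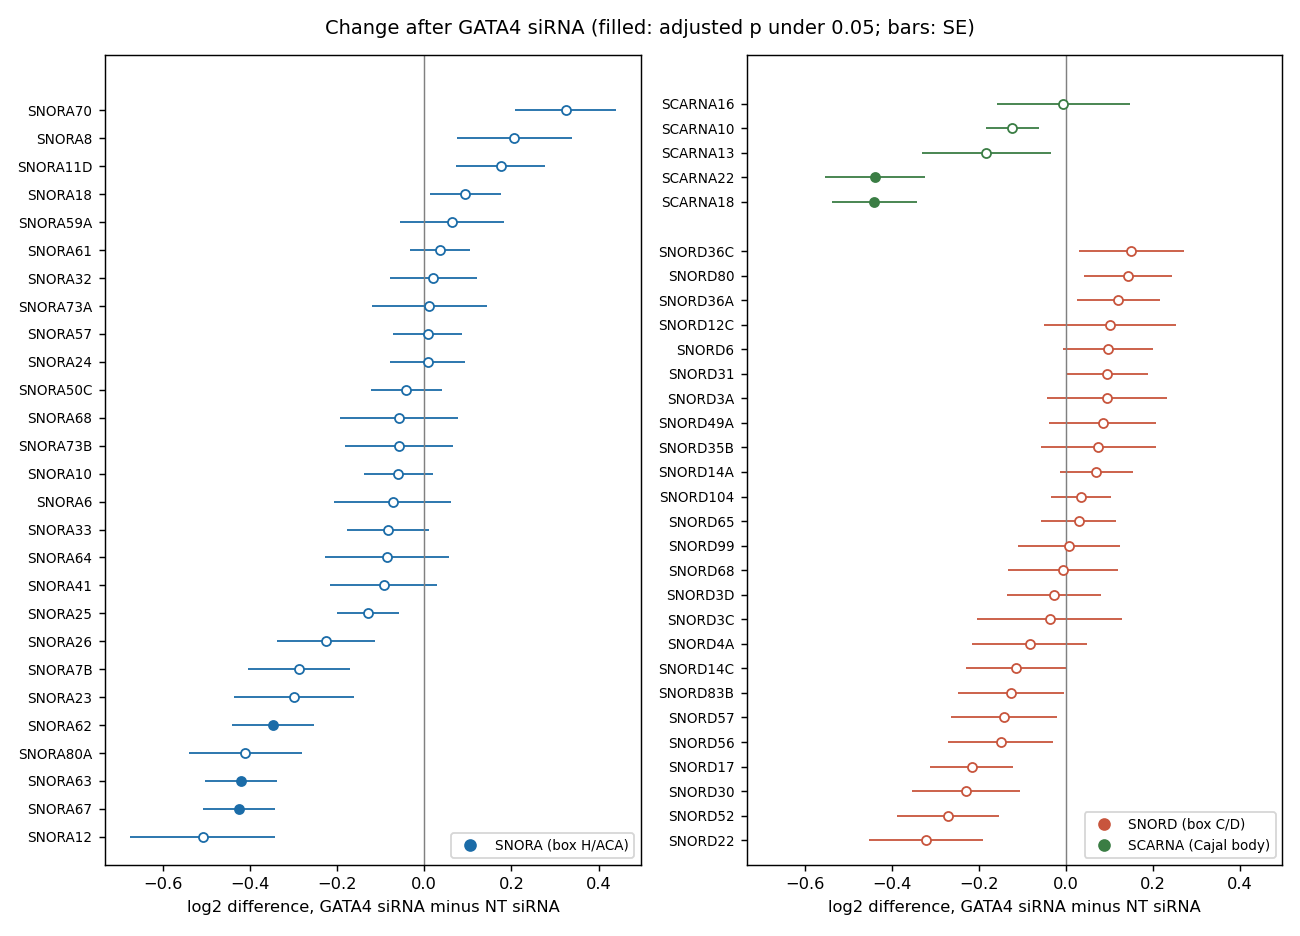
Difference between GATA4 siRNA and NT siRNA with the replicate block (log2, points, with standard errors as bars) for the 57 members, by class. The filled points are the 3 SNORA and 2 SCARNA genes with an adjusted p under 0.05, all left of 0. No SNORD point is filled, and SNORD values run from -0.32 to 0.15.

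None of the tested hosts of the 5 called members passed with GATA4 siRNA. With the replicate block EIF4A2 differed by 0.07 ± 0.04, EIF4A1 by 0.00 ± 0.04, TMEM167A by -0.01 ± 0.05 and NSD2 by 0.04 ± 0.12 (SE; adjusted p = 0.363, 0.975, 0.912 and 0.904). The NSD2 probe was dim, at 136.7 to 170.7 raw units. Of the 30 hosts tested, 0 were higher and 2 lower with GATA4 siRNA, against 2.66% and 3.78% of all genes: NCAPD2, which encodes a condensin subunit, at -0.30 ± 0.07 (SE, adjusted p = 0.0108) and DANCR, a long noncoding RNA, at -0.25 ± 0.05 (SE, adjusted p = 0.00167). The members inside them, SCARNA10 and SNORA26, differed by -0.12 and -0.23 and did not pass. Of the cell type markers tested, ALB alone passed with GATA4 siRNA, at -0.23 (limma, adjusted p = 0.00577; 0.206 without the block). The hepatoblast and hepatocyte list summed to 60190.4 to 66380.7 raw units with NT siRNA and 56914 to 66315.9 with GATA4 siRNA, and its part in the differences of the small RNAs was not tested.

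Between the sets most of the differing SNORA and SCARNA genes were higher. In replicates 4 to 6 against replicates 1 to 3, with siRNA in the fit, 14 of 27 SNORA genes were higher and 2 lower, 3 of 25 SNORD genes were higher and 4 lower, and 3 of 5 SCARNA genes were higher and 0 lower. Over all genes tested 25.9% were higher and 25.2% lower, 51.1% in all. The median difference was 0.24 for SNORA, -0.04 for SNORD, 0.30 for SCARNA and 0.01 for all genes. These are counts over genes chosen by name, and the difference between classes was not tested. A member that is high in 1 set only can pass the filter through that set. Of the 39 members detected on all 12 arrays, 10 of 21 SNORA genes were higher and 2 lower, 2 of 15 SNORD genes higher and 3 lower, and 3 of 3 SCARNA genes higher. Detected probes per array among all those annotated as SNORA numbered 24 to 30 in replicates 1 to 3 and 30 to 36 in replicates 4 to 6. SNORD probes gave 25 to 28 and 24 to 27. These counts include the tested probes on the same arrays, so they are not separate evidence.

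SNORA63 had the largest difference of any member. From the values given above, its raw signal was 172.2 to 197.1 in replicates 1 to 3 and 266.9 to 356.4 in replicates 4 to 6. The sets did not overlap. The difference was 1.26 ± 0.08 on the log2 scale (SE, adjusted p = 1.47e-12), a 2.40-fold higher signal. It was 1.38 within NT siRNA and 1.14 within GATA4 siRNA. Without background correction it was 0.72, and the differences of all other members called between sets were smaller too, with every call kept.

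SCARNA18 and SCARNA22 followed, at 1.25 ± 0.11 (SE, adjusted p = 6.72e-10) and 1.11 ± 0.12 (SE, adjusted p = 1.72e-08). Neither overlapped between sets on the log2 scale. SNORA12 was 1.09 ± 0.19 higher (SE, adjusted p = 2.65e-05), and its sets overlapped through GATA4 siRNA replicate 6. SNORA67 was 0.83 ± 0.09 higher (SE, adjusted p = 3.26e-08), with overlap through the same sample after normalisation.

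SNORA23, in the nuclear import gene IPO7, was detected in 0 of 6 samples of replicates 1 to 3 and in 6 of 6 of replicates 4 to 6. It read 130.9, 125.3 and 119.8 with NT siRNA and 120.5, 114.5 and 122.9 with GATA4 siRNA in the first set. In the second it read 154.6, 168.1 and 148.3 with NT siRNA and 148.2, 162.2 and 154.0 with GATA4 siRNA. On the background-corrected, normalised scale the signal was at least 1.31-fold higher in replicates 4 to 6, with the lowest detected signals standing in for replicates 1 to 3 (limma, adjusted p = 9.23e-07). Without background correction the fitted difference was 0.32 on the log2 scale. Since SNORA23 passed the filter through 1 set only, it had to differ.

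SNORA57, inside LBHD1 and CSKMT, differed by set alone at this threshold. It read 206.0, 214.9 and 221.7 with NT siRNA and 242.6, 223.6 and 205.3 with GATA4 siRNA in replicates 1 to 3. In replicates 4 to 6 it read 277.6, 297.2 and 282.2 with NT siRNA and 284.0, 320.9 and 296.5 with GATA4 siRNA. All samples of the second set were above all of the first, by 0.68 ± 0.07 (SE, adjusted p = 2.13e-08), and the siRNA groups differed by 0.01 ± 0.08 (SE, adjusted p = 0.974). The other higher SNORA genes rose by 0.21 to 0.51: SNORA6, SNORA62, SNORA50C, SNORA33, SNORA73B, SNORA73A, SNORA7B, SNORA10 and SNORA18. In replicates 1 to 3 SNORA6 was detected in 3 of 6 samples and SNORA73A in 2 of 6, against 6 of 6 in replicates 4 to 6. Both thus passed the filter mainly through the set where they are high (0.17 and 0.13 without background correction). SNORA73A and SNORA73B, the near-identical U17 RNAs that help to cleave the ribosomal precursor, may share signal between probes. A second tested probe of SNORA73B gave 0.27 against 0.42.

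The lower members were led by 2 from 1 host. SNORD99 and SNORA61 both lie in SNHG12, a noncoding host. SNORA61 (chr1:28579764-28579893) read 375.7, 389.0 and 434.4 with NT siRNA and 432.8, 400.3 and 366.4 with GATA4 siRNA in replicates 1 to 3. In replicates 4 to 6 it read 276.7, 293.6 and 277.5 with NT siRNA and 282.0, 351.1 and 324.0 with GATA4 siRNA. Every sample of the second set lay below every sample of the first, with a difference of -0.59 ± 0.07 (SE, adjusted p = 2.79e-08).

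SNORD99 (chr1:28578743-28578822) was lower, at -0.67 ± 0.11 (SE, adjusted p = 2.16e-05). Its raw signal was 149.9 to 172.4 in replicates 1 to 3, detected in 6 of 6, and 133.3 to 150.7 in replicates 4 to 6, detected in 1 of 6. It thus passed the filter mainly through the set where it is high, and its difference is against samples mostly not detected (-0.23 without background correction). The sets did not overlap after normalisation. SNORD14A, in the ribosomal protein gene RPS13, is a U14 RNA, a kind known from yeast to take part in processing the ribosomal precursor. It was lower, at -0.44 ± 0.08 (SE, adjusted p = 9.12e-05), also with no overlap. SNORD52, SNORD17 and SNORA25 were lower, at -0.40, -0.32 and -0.30.

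All 3 higher SNORD genes were U3 genes, SNORD3A by 0.76 ± 0.13, SNORD3C by 0.67 ± 0.16 and SNORD3D by 0.57 ± 0.11 (SE; adjusted p = 2.27e-05, 0.000858 and 8.69e-05). They have no host and lie on chromosome 17. SNORD3D read 142.3 to 167.6 in replicates 1 to 3 and 178.7 to 192.5 in replicates 4 to 6, with no overlap. SNORD3A read 154.9 to 252.0 and 229.8 to 274.3, overlapping through GATA4 siRNA replicate 1. SNORD3C was detected in 1 of 6 samples of replicates 1 to 3 and in 5 of 6 of replicates 4 to 6, so it passed the filter mainly through the set where it is high (0.22 without background correction). As near-identical copies they may be measured by each other's probes, so the 3 genes are not separate evidence. None of them passed with GATA4 siRNA, where the differences were 0.09, -0.04 and -0.03.

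**Figure D3:**
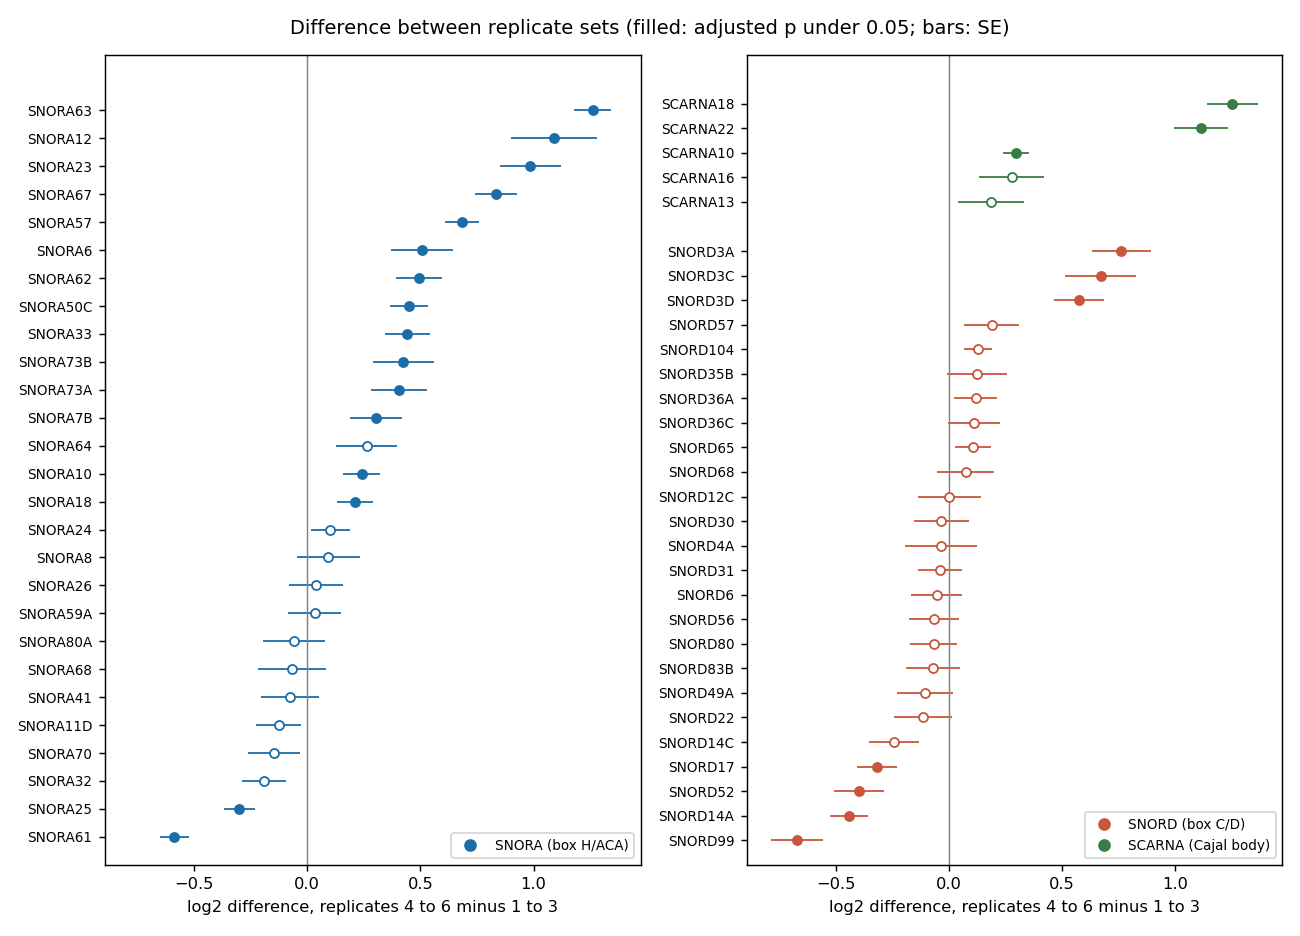
Difference between replicates 4 to 6 and replicates 1 to 3 (log2, points, with standard errors as bars) for the 57 members, by class. Filled points have an adjusted p under 0.05. SNORA points reach 1.26 and 14 are filled right of 0, the 3 filled SNORD points right of 0 are the U3 genes, and all 5 SCARNA points lie right of 0.

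The sets did not overlap on the log2 scale in 10 of the 57 members, a smaller share than the 25.7% of all genes. Those above were SNORA63, SNORA23, SNORA57, SCARNA18, SCARNA22, SCARNA10 and SNORD3D, and those below were SNORA61, SNORD99 and SNORD14A. Among them SNORA23 and SNORD99 passed the filter wholly or mainly through the set where they are high. Within NT siRNA alone 17 members were higher and 7 lower against 38.3% of genes (19.1% higher, 19.2% lower). Within GATA4 siRNA alone 14 were higher and 3 lower against 36.4% (16.8% and 19.5%). SNORA73A (0.36 and 0.46), SNORA73B (0.39 and 0.46) and SNORA18 (0.20 and 0.23) passed in neither group alone. Leaving out single samples ended the calls of SNORA10 (without NT siRNA replicate 4, 0.18, adjusted p = 0.0634), of SNORA18 (without NT siRNA replicate 3 or GATA4 siRNA replicate 2 or 4, 0.16 to 0.19, adjusted p = 0.0636 to 0.0847) and of SNORA7B (without NT siRNA replicate 1, 3, 4, 5 or 6 or GATA4 siRNA replicate 3 or 4, 0.23 to 0.29, adjusted p = 0.0506 to 0.0915).

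Some markers of other cell types also differed between the sets. All 3 macrophage markers were lower in replicates 4 to 6 (CD14 at -1.15, CD163 at -0.96 and CD68 at -0.51). Their summed raw signal was 987.7 to 1125.7 in replicates 1 to 3 and 682.7 to 880.1 in replicates 4 to 6. CD163 was detected on 6 arrays only, at a mean log2 level of 5.64 in replicates 1 to 3 and 4.68 in replicates 4 to 6. The latter lay below the lowest detected signals there (5.42 on average). CD163 thus passed the filter mainly through the set where it is high, and -0.96 is a fitted value. Of the stellate cell and fibroblast markers RGS5 and PDGFRB were lower, at -1.09 and -0.25, with a sum over the list of 1077.6 to 1249.5 against 900 to 1054.7 and the other 3 detected on 0 arrays. The lymphocyte marker CD3D was lower, at -0.95, its list summing to 2539.1 to 2663.9 against 1295.9 to 1768.6, while PTPRC was detected on 0 arrays. Of the hepatocyte markers TTR, AFP and ALB were lower, at -0.47, -0.15 and -0.12, while APOA1 and GPC3, at -0.06 and 0.03, did not pass. That list summed to 56914 to 66380.7 against 57190.7 to 64964.8. PECAM1 of endothelium, at 0.01, and the neural marker SYT1, at -0.02, did not pass either. The part of all these markers in the differences of the small RNAs was not tested.

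Several members differed between the sets otherwise than their tested hosts did. For each of the 41 members with a tested host (30 hosts), the member's log2 signal minus the host's was compared between sets with a two-sided exact permutation test that shuffled samples within each siRNA group (400 splits, smallest possible p 0.005). Where a member lay inside more than 1 gene, the gene compared was the one with a tested probe. This permutation test was chosen after the data were seen, and p-values were adjusted over the 41. In 13 members it gave an adjusted p under 0.05. For 9 of them the member's difference was the more positive and for 4 the more negative. How often other pairs of genes would differ in this way was not tested, and 51.1% of all genes tested differed between the sets.

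SNORA63 moved 1.34 further than EIF4A2, which differed by -0.08 ± 0.05 (SE) between sets. SCARNA18 moved 1.18 further than TMEM167A, SCARNA22 1.08 further than NSD2 and SNORA67 0.86 further than EIF4A1 (exact permutation test, adjusted p = 0.0293 for each). These hosts differed by 0.07, 0.03 and -0.02. SNORA57 moved 0.59 further than LBHD1 (adjusted p = 0.0293, exact permutation test). It also lies inside CSKMT, which was detected on 0 arrays and not tested. SNORA12 and CWF19L1 (0.94), SCARNA16 and SEC14L1 (0.67), SNORA33 and RPS12 (0.46) and SCARNA10 and NCAPD2 (0.37) gave an exact adjusted p of 0.0315. In the other direction stood SNORD14A and RPS13 (-0.53), SNORD17 and SNX5 (-0.49), SNORA25 and TAF1D (-0.40) and SNORD68 and RPL13 (-0.34). In 2 of these pairs the tested host changed and the member did not pass. SEC14L1 differed by -0.39 (limma, adjusted p = 1.07e-05) and SCARNA16 by 0.28 (limma, adjusted p = 0.11). SCARNA16 also lies inside SNHG20, which was detected on 0 arrays and not tested, so only SEC14L1 was compared. RPL13 differed by 0.41 (limma, adjusted p = 3.13e-09) and SNORD68 by 0.07 (limma, adjusted p = 0.651).

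**Figure D4:**
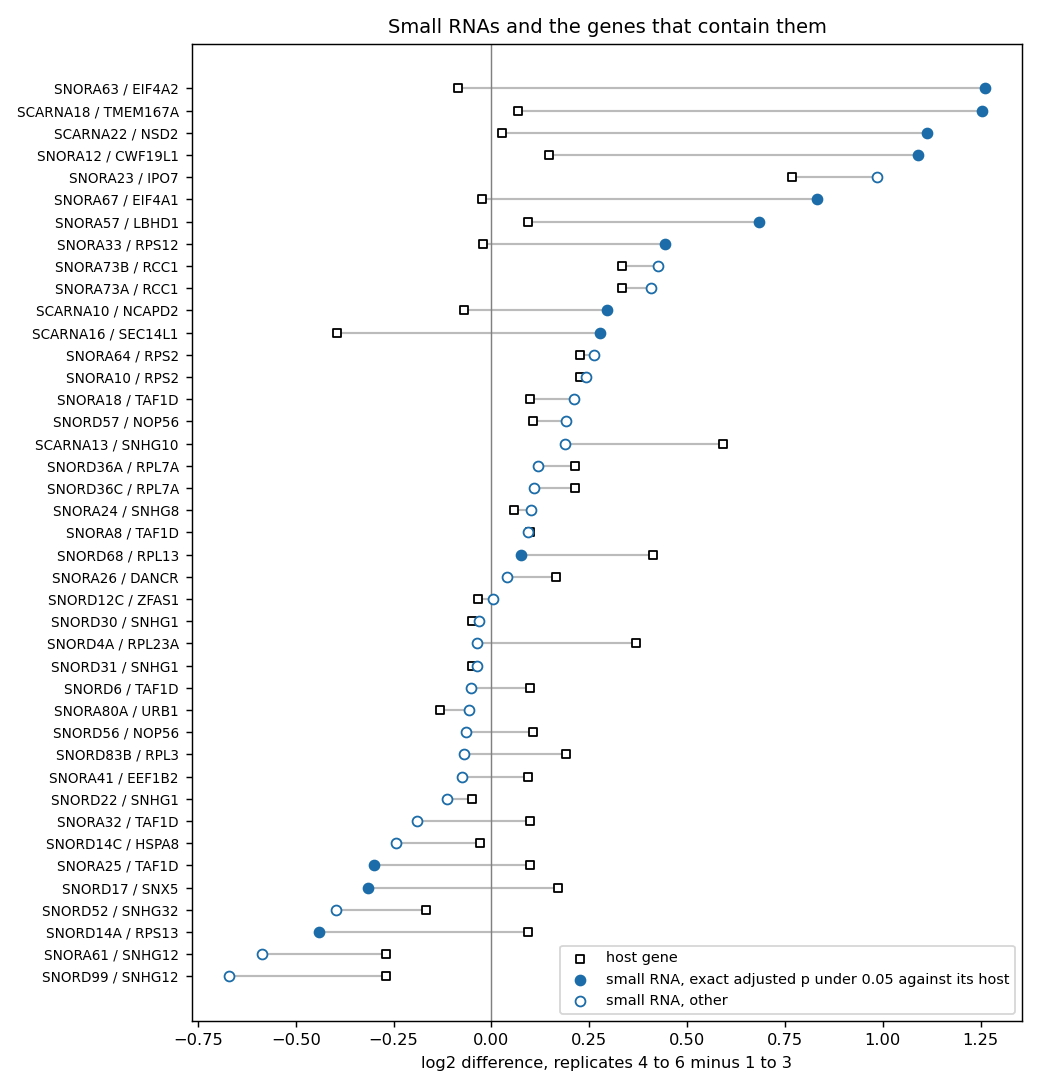
Difference between sets of replicates (log2) for 41 members (circles) and the tested genes that contain them (squares), joined by lines and sorted by the member. Filled circles have an exact adjusted p under 0.05 against the host. SNORA63, SCARNA18 and SCARNA22 lie beyond 1 while their hosts lie between -0.08 and 0.07. SNORA12 also lies beyond 1, at 1.09, with its host CWF19L1 at 0.15.

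For other members the difference from the host did not pass. SNORA23 and IPO7 were both higher, by 0.99 as fitted and 0.77, and SNORA73A, SNORA73B and RCC1 by 0.41, 0.42 and 0.33. SNORA73A and SNORA73B also lie inside SNHG3, which was detected on 0 arrays and not tested. SNORA10 and RPS2 were higher by 0.24 and 0.23. SNORA61 and SNORD99 were lower, and SNHG12 gave -0.27 ± 0.13 (SE, adjusted p = 0.0794). Of the 30 hosts, 12 were higher and 2 lower between sets, against 25.9% and 25.2% of all genes.

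Members that share a host did not always share a direction. Within TAF1D, whose own probe differed by 0.10 ± 0.06 (SE, adjusted p = 0.185) between sets, SNORA25 was lower, at -0.30 and SNORA18 higher by 0.21, while SNORA32, SNORD6 and SNORA8 gave -0.19, -0.05 and 0.09 and did not pass. SNORA6 and SNORA62 in RPSA were both higher, by 0.51 and 0.49. In SNHG1, SNORD22, SNORD30 and SNORD31 gave -0.11, -0.03 and -0.04. SNORA50C (chr17:64146339-64146471) and its neighbour SNORD104 (chr17:64146078-64146157, inside SNHG25) gave 0.45 ± 0.08 (SE, adjusted p = 6.1e-05) and 0.13 ± 0.06 (SE, adjusted p = 0.0902). SNORD104 read 284.2 to 332.4 raw units in replicates 1 to 3 and 308.0 to 369.7 in replicates 4 to 6.

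Few of the proteins that hold and make these RNAs passed with GATA4 siRNA. The counts in the lists that follow stand against 2.66% of all genes higher and 3.78% lower with GATA4 siRNA, and 25.9% higher and 25.2% lower between sets. None of the 4 box H/ACA core proteins and none of the 4 box C/D core proteins passed with GATA4 siRNA, and DKC1, the synthase, differed by 0.00 ± 0.05 (SE, adjusted p = 0.991). Between sets DKC1 and NHP2 were higher by 0.11 and 0.28, with NOP10 and GAR1 at -0.09 and -0.09, and FBL and NOP56 were higher by 0.33 and 0.11. Of 11 assembly factors tested, 0 passed with GATA4 siRNA and 4 were higher between sets (NUFIP1, RUVBL2, SHQ1 and ZNHIT3, by 0.14 to 0.32). The list medians with GATA4 siRNA were 0.02, -0.07 and -0.02 for the 3 groups, against 0.00 over all genes.

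COIL and TENT4B were lower after GATA4 siRNA. COIL encodes coilin, the scaffold protein of Cajal bodies, where scaRNAs act. It was the 1 gene of 14 Cajal body and cap factors to pass, at log2 levels of 9.37 ± 0.10 under NT siRNA and 9.00 ± 0.20 under GATA4 siRNA (SD, n = 6 each), a difference of -0.37 ± 0.06 (SE, limma adjusted p = 0.000285; 0.0833 without the block). Between sets COIL was higher by 0.24, and 7 of the 14 were higher and 0 lower. TENT4B encodes a poly(A) polymerase that adds short A tails to nuclear RNAs, snoRNA precursors among them, which marks them for trimming or decay. It was the 1 of 20 trimming and decay factors to pass, at -0.44 ± 0.07 (SE, limma adjusted p = 0.000477; 0.25 without the block).

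TENT4B was also lower between sets, at -0.45 ± 0.07 (SE, adjusted p = 5.95e-06). So were the exonucleases PARN, which removes such tails, and XRN1, at -0.14 and -0.15. Higher in replicates 4 to 6 were 7 factors: ZCCHC7, the RNA-binding partner of that polymerase, by 0.53, the exosome subunits EXOSC5, EXOSC2, EXOSC7 and EXOSC3 by 0.26 to 0.48, the exonuclease XRN2 by 0.31 and the deadenylase TOE1 by 0.24. Among 16 factors that process the ribosomal precursor, the target of most snoRNAs, 0 passed with GATA4 siRNA. Between sets 8 were higher, led by HEATR1 at 0.32 and NAT10 at 0.26, and 1, BMS1, was lower at -0.18. How far the amount of tailed snoRNA, and with it the signal of this labelling, moved with these genes was not tested.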

How the data were processed

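Signals of 12 arrays came from the authors' deposited table of raw intensity per probe, read with GenomeStudio per the submitters' processing notes; the lowest signal is 82.2. A detection p-value stands beside each intensity, per the file headers. The authors' deposited normalised log2 values, which differ by at most 0.0141 from quantile-normalised log2 signals, served as an alternative. Every column was mapped to its sample. Probe names came from GEO's platform annotation; 30073 symbols were matched by gene ID to RefSeq (GRCh38.p14).

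From these, neqc (limma 3.58.1, R 4.3.3) estimated background from the detection p-values, added an offset of 16, normalised by quantiles and took log2. Linear models with empirical Bayes moderation and a mean-variance trend gave two-sided p-values, adjusted by Benjamini-Hochberg over 10196 genes, with 0.05 as threshold. The siRNA comparison had replicate number as a block, and the set comparison had siRNA in the fit. Fits were tested on simulated data.

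Members, gene lists and sets were chosen with earlier results of these data known. Named genes were GATA4, members called with GATA4 siRNA or with the 3 lowest p of their class, members called between sets, the brightest members, called members of each list or the one with the lowest p, and hosts of these. SNORA70, SNORA80A and members that share a host or a neighbourhood with a named one were added after their values were seen. Hosts were found without strand, although same-strand hosts were planned, because the table gives none for the members.

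Deviations from the group means correlated between samples of 1 number in 6 of 6 pairs (r over genes 0.547 to 0.603), which was taken as pairing. About the means of group and set r was -0.0609 to 0.0117, so the pairing comes from the 2 sets. Pearson's r between arrays was 0.979 to 0.996, and no 2 arrays were counted as 1. The number of arrays limits the precision. Alternatives changed the background correction, normalisation, filter, probe rule, variance model, array weights and block, and left out each sample.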

Additional observations from a re-analysis of the deposited data

Results flagged for a closer look

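Groups of 6 samples (each member within each siRNA group) numbered 114. In 6 of them 1 sample stood apart from the other 5 by Dixon's test at the 95% level. Chance alone would give about 5.7 if each group had a single normal spread. Each group mixes the 2 sets of replicates, so this number does not hold as it stands. All 6 samples that stood apart were low. On the log2 scale SNORA64 was 5.03 in NT siRNA replicate 1, with the others at 5.69 to 5.87, and 5.17 in GATA4 siRNA replicate 3, with the others at 5.60 to 5.71. SNORA73B was 5.00 in GATA4 siRNA replicate 3 (others 5.79 to 6.11) and SNORD12C was 5.23 in GATA4 siRNA replicate 2 (others 5.72 to 5.89). SNORD68 was 5.29 in NT siRNA replicate 6 (others 5.75 to 5.93) and SNORD83B was 5.40 in NT siRNA replicate 5 (others 5.79 to 5.99). None of these members passed with GATA4 siRNA.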

How the results depend on the processing

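With GATA4 siRNA, 5 members were lower in the paired analysis and 0 higher. The count of lower members was 2 with no filter on detection, 2 with no mean-variance trend, 0 with no replicate block and 0 within replicates 1 to 3. Leaving out each sample in turn gave 2 to 7 lower and 0 to 1 higher. With the sets as block in place of the replicate number it was again 5. Without any block COIL and TENT4B (1 lower gene of each list) went to 0, as did the 2 lower hosts. The cause was not tested. Between sets, higher members numbered 20 (18 to 22 with samples left out), and the 14 higher SNORA genes (12 to 14) became 8 within GATA4 siRNA, where fewer samples enter. In the same setting the 6 lower members (6 to 7) became 3, the 2 lower SNORA genes (2 to 3) became 1, and the 4 lower SNORD genes (4 to 5) became 2. With no filter on detection 4 SNORA genes were lower. Higher SNORD genes numbered 3 to 4 with samples left out. The replicate number as a random block (consensus correlation -0.0726) left 20 members higher. The change of GATA4 was -1.20, and -1.24 to -1.09 with samples left out. Over all alternatives it ran from -1.25 to -0.42, the latter without background correction. As a fitted difference against a group detected in 0 of 6 samples it is no bound. It could not be tested where detection on all 12 arrays was asked. Without background correction the differences of all called members shrank and kept their calls. No called difference changed direction under these alternatives. Differences that did not pass, such as that of SCARNA13 (-0.50 and 0.13 in the sets), could change sign. At a detection p under 0.05 the members would number 94 instead of 57. The block by chip was not run, as no chip is given. Signals near background limit what can be seen for most members.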
